A study of Mus musculus with 6 samples.

Results

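The 9 genes described here are the bone morphogenetic protein (BMP) ligands Bmp2 and Bmp4, the secreted BMP antagonists Grem1 and Nog, the membrane pseudoreceptor Bambi, and the inhibitor of DNA binding genes Id1, Id2, Id3 and Id4. They were taken by gene symbol from a table of 55487 genes, and 9 of 9 were found. The cells were primary fibroblasts from the lungs of wild-type C57BL/6 mice, held in 0.1% serum and then exposed for 24 h to PBS (3 libraries) or to 1 µg/mL rmCIRBP (3 libraries). This is a recombinant form of mouse CIRBP, the cold-inducible RNA-binding protein, which outside cells is known as a damage-associated molecule that provokes inflammation. All 6 libraries share strain, genotype, serum starvation and polyA-selected RNA, and since nothing in the labels ties replicates to separate animals or cultures, p-values cover only the spread between these libraries, which may be technical.

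BMPs are secreted ligands of the TGF-beta superfamily that bind pairs of type I and type II serine/threonine kinase receptors. The activated receptors phosphorylate SMAD1, SMAD5 and SMAD9, which enter the nucleus with SMAD4, and the ID genes are among their best known direct targets. ID proteins carry a helix-loop-helix domain without a basic region, so they pair with E proteins and other basic helix-loop-helix factors and keep them off DNA. Gremlin 1 and noggin bind BMPs outside the cell, and in lung fibroblasts gremlin 1 is known for its high level in pulmonary fibrosis.

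Depth was 12105584 to 14262375 counts per library. Values below are CPM, counts relative to the library size after adjustment by the trimmed mean of M values, and a count of 0 allows up to 3 counts, or 0.205 to 0.250 CPM, for counting error only. Fibroblast markers (Col1a1, Col1a2, Pdgfra, Dcn and Lum) summed to 15000 to 21100 CPM, with Dcn higher in rmCIRBP (edgeR adjusted p = 0.0261). Of the epithelial markers Krt8 and Nkx2-1 were at 0 in every library and the list summed to at most 0.479 CPM. Endothelial Tie1, Cldn5 and Emcn were also at 0. Kdr, the one endothelial marker tested, fell from 11.2 to 16.5 CPM in PBS to 0.795 to 1.54 CPM in rmCIRBP (edgeR adjusted p = 0.000473), and the list without Kdr summed to at most 0.662 CPM. Macrophage markers summed to 21.7 to 26.1 CPM in PBS and 23.3 to 36.8 CPM in rmCIRBP, with Adgre1 higher (1.44 to 1.87 against 5.21 to 11.3 CPM, edgeR adjusted p = 0.00440) and Mrc1 lower (2.66 to 3.99 against 0.587 to 1.45 CPM, edgeR adjusted p = 0.0302). The mesothelial list summed to 8.38 to 13.7 CPM in PBS and 2.64 to 5.74 CPM in rmCIRBP, with Upk3b lower (edgeR adjusted p = 0.0283). Neutrophil markers, of which 0 were tested, summed to 0 to 0.250 CPM in PBS and 1.23 to 1.69 CPM in rmCIRBP. S100a8 held 3 counts over the PBS libraries and 34 over the rmCIRBP libraries, Csf3r 0 and 20, and Mpo 0 and 3. S100a9 and Ly6g were at 0. The part of these markers in the levels below was not tested. PBS 1 and rmCIRBP 2 stood apart from the other libraries on the second principal component (18.0% of the variance), with scores of 28.6 and 38.8 against -36.6 to -6.34. The same 2 libraries were highest in the smooth muscle genes Myh11, Cnn1 and Actg2, which carry the sum of the smooth muscle and pericyte list (these and Rgs5 and Cspg4). That sum was 1118 CPM in PBS 1 against 485 and 470 CPM in the other PBS libraries, and 1716 CPM in rmCIRBP 2 against 590 and 180 CPM. The pericyte genes did not follow it: Rgs5 was lowest in PBS 1 (0.915 CPM) and in rmCIRBP 2 (2.24 CPM) within their groups, and Cspg4, which fell with rmCIRBP (edgeR adjusted p = 0.0180), was lowest in PBS 1 (5.16 CPM) among the PBS libraries.

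Within this set, rmCIRBP went with a higher level of Id2 and a lower level of Id4. Id2 rose 3.00-fold and Id4 fell 2.28-fold. The other 6 genes tested, among them the ligands Bmp2 and Bmp4 and the abundant antagonist Grem1, did not pass. Of the 9 genes, 8 passed the filter on low counts and were tested, and Nog did not. Calls were made with edgeR (quasi-likelihood, two-sided) where the Benjamini-Hochberg adjusted p over 15801 genes was under 0.05, which called 11.5% of all genes (6.74% higher, 4.77% lower). With upper quartile scaling the calls over all genes split into 925 higher and 1022 lower, against 1065 and 753. The number called over all genes fell from 1818 to 723 without PBS 2, 863 without PBS 3 and 742 without rmCIRBP 1. The median log2 fold change of the 8 genes was 0.04, beside -0.01 over all genes tested. PBS and rmCIRBP values were fully apart for 3 of the 8, beside 34.6% of all genes tested, and 4 of the 8 had an unadjusted p under 0.05, beside 28.8%.

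**Figure D1:**
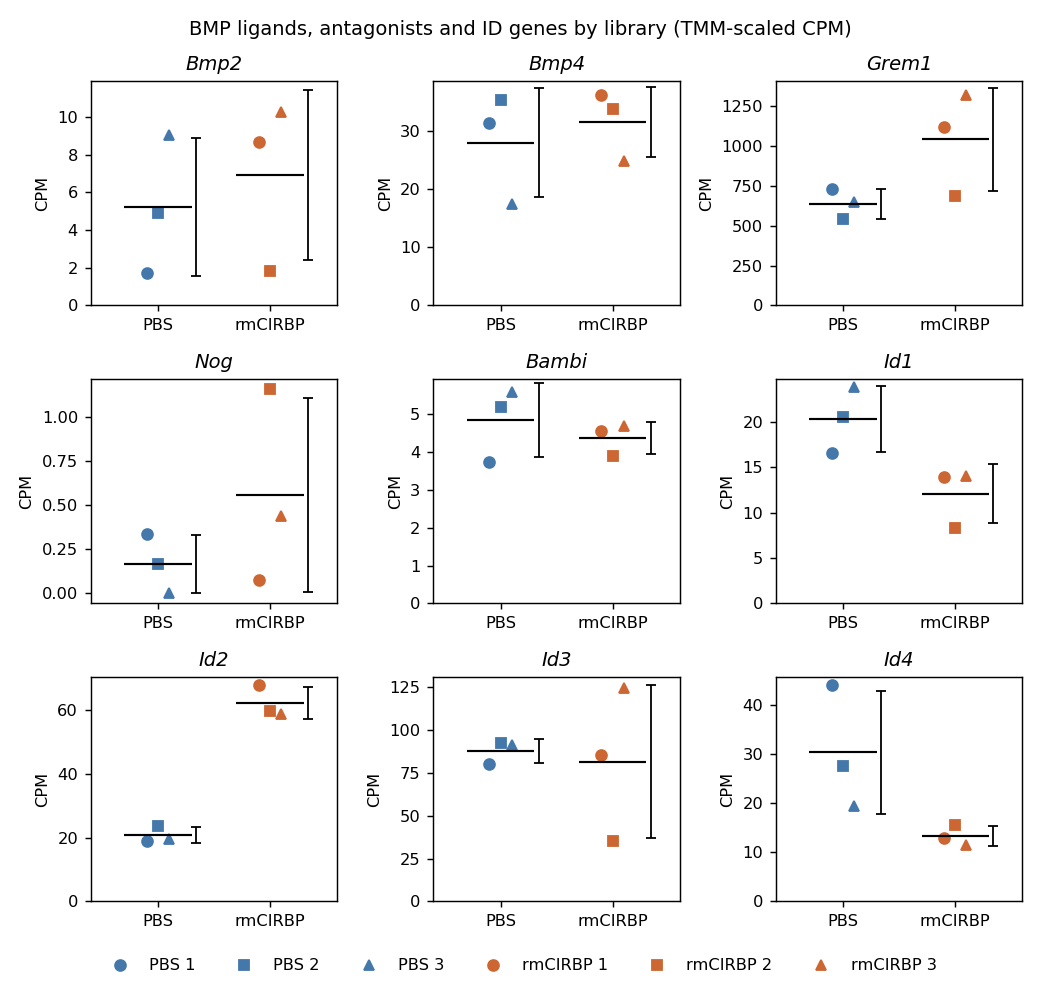
Level of each of the 9 genes in CPM (vertical axes, linear, 1 scale per gene) in 3 PBS and 3 rmCIRBP libraries; points are libraries, horizontal lines group means and bars the SD. The groups are apart for Id1, Id2 and Id4, while Bmp2 at 1.75 and 1.81 CPM is lowest in PBS 1 and rmCIRBP 2.

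Levels of different genes were compared per kilobase of exon. In PBS, Grem1 led at 154 ± 22.8 CPM per kilobase (SD, n = 3), ahead of Id3 at 49.1 ± 3.86 and Id1 at 17.5 ± 3.13. Next came Bmp4 at 12.5 ± 4.19, Id2 at 8.49 ± 1.04 and Id4 at 7.90 ± 3.25 CPM per kilobase. Bmp2 at 1.47 ± 1.03, Bambi at 0.956 ± 0.193 and Nog at 0.0974 ± 0.0981 CPM per kilobase were the lowest. The library values of Id1 and Bmp4 overlapped, as did those of Bmp4 and Id2, of Id2 and Id4, and of Bmp2 and Bambi. The order of these neighbours was not tested. Within libraries, Id1 was above Bmp4 in PBS 1 (14.27 against 13.95), PBS 2 (17.74 against 15.74) and PBS 3 (20.51 against 7.755). The other pairs changed order between PBS libraries. Without the division by length, Id4 ranked 3 and Id1 ranked 6 in PBS, against 6 and 3 per kilobase. In rmCIRBP the order was Grem1 (251 ± 77.9), Id3 (45.6 ± 25.0), Id2 (25.5 ± 2.05), Bmp4 (14.1 ± 2.67), Id1 (10.4 ± 2.82), Id4 (3.45 ± 0.523), Bmp2 (1.95 ± 1.26), Bambi (0.864 ± 0.0831) and Nog (0.328 ± 0.325 CPM per kilobase; SD, n = 3). There Id2 ranked 3 instead of 5 and overlapped Id3, whose level in rmCIRBP 2 was 19.6 CPM per kilobase.

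Among the ligands, Bmp2 varied more between libraries of a group than between the groups. Bmp2 (chromosome 2, 133552159 to 133562885, GRCm38) was at 1.75, 4.88 and 9.02 CPM in PBS 1, 2 and 3 and at 8.68, 1.81 and 10.3 CPM in rmCIRBP 1, 2 and 3. The lowest library of each group, PBS 1 and rmCIRBP 2, was the one with the highest Myh11, Cnn1 and Actg2, and the part of these in the level of Bmp2 was not tested. The log2 fold change of Bmp2 was 0.39 with a 95% interval of -1.18 to 1.97 (edgeR adjusted p = 0.745). With both of those libraries left out, an alternative chosen after the data were seen, it was 0.44 (edgeR adjusted p = 0.368).

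Bmp4, the more abundant ligand (chromosome 14, 46383520 to 46390669), was at 31.4, 35.4 and 17.4 CPM in PBS and at 36.2, 33.9 and 24.9 CPM in rmCIRBP. The groups overlapped, and replicate 3 was the lowest library in each. Its log2 fold change was 0.18 with a 95% interval of -0.43 to 0.78 (edgeR adjusted p = 0.700). The ratio of Bmp4 to Bmp2 per kilobase took values of 3.06 to 28.4 in PBS against 3.83 to 29.7 in rmCIRBP, and the ranges overlapped. An antisense gene within Bmp4, Gm15222, held 21 to 58 counts per library and shares 0 exon bases with it, and Gm15217 on the other strand shares 89 exon bases with Bmp4 and held 0 to 5 counts. Since the strand setting of the counting is not given in the sources used here, reads in the 89 bases that Bmp4 shares with Gm15217 cannot be told apart.

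Grem1 was the most abundant of the 9 genes in every library. Grem1 (chromosome 2, 113746164 to 113758646) was at 729, 540 and 646 CPM in PBS and at 1119, 689 and 1322 CPM in rmCIRBP. rmCIRBP 1 and rmCIRBP 3 lay above all PBS libraries, whereas rmCIRBP 2 lay below PBS 1. The log2 fold change of 0.71 ± 0.24 (SE) did not pass (edgeR adjusted p = 0.0998; 95% interval 0.15 to 1.27). Without rmCIRBP 2 the log2 fold change was 0.94 and passed (edgeR adjusted p = 0.00990), as did 0.73 with no filter on low counts (edgeR adjusted p = 0.0193). DESeq2 on the 6 libraries, which called 13.9% of the genes it tested, gave 0.71 and an adjusted p of 0.0280. Without both PBS 1 and rmCIRBP 2 it was 1.05 (edgeR adjusted p = 0.00539), in a fit that called 17.5% of all genes tested. Grem1 did not pass in the other 12 of the 16 alternatives. Its edgeR adjusted p was 0.275 without PBS 2, 0.236 without PBS 3, 0.229 without rmCIRBP 1 and 0.207 without rmCIRBP 3. RNA of whole cultures does not tell fewer cells of a type from less RNA per cell.

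Per kilobase, Grem1 exceeded the summed ligands Bmp2 and Bmp4 by 12.2, 7.61 and 15.1 times in PBS 1, 2 and 3. In rmCIRBP 1, 2 and 3 the ratio was 14.6, 10.7 and 22.9. These ranges overlap.

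Nog, which encodes noggin (chromosome 11, 89300638 to 89302332), was near the detection limit. Its counts were 4, 2 and 0 in PBS 1, 2 and 3 and 1, 16 and 6 in rmCIRBP 1, 2 and 3, or 6 and 23 counts per group. Most of the rmCIRBP counts came from rmCIRBP 2, at 1.16 CPM, and the groups overlapped. In an edgeR fit with no filter on low counts its adjusted p was 0.383.

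Bambi, a pseudoreceptor that lacks a kinase domain and dampens BMP and TGF-beta signalling (chromosome 18, 3507923 to 3516404), was at 3.74, 5.21 and 5.61 CPM in PBS and at 4.56, 3.90 and 4.69 CPM in rmCIRBP. All rmCIRBP values lay within the PBS range. The log2 fold change was -0.15 with a 95% interval of -0.70 to 0.40 (edgeR adjusted p = 0.723). A processed pseudogene of Bambi on chromosome 2, Bambi-ps1, held 1 to 10 counts per library, so a share of the reads of this pair is uncertain.

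**Figure D2:**
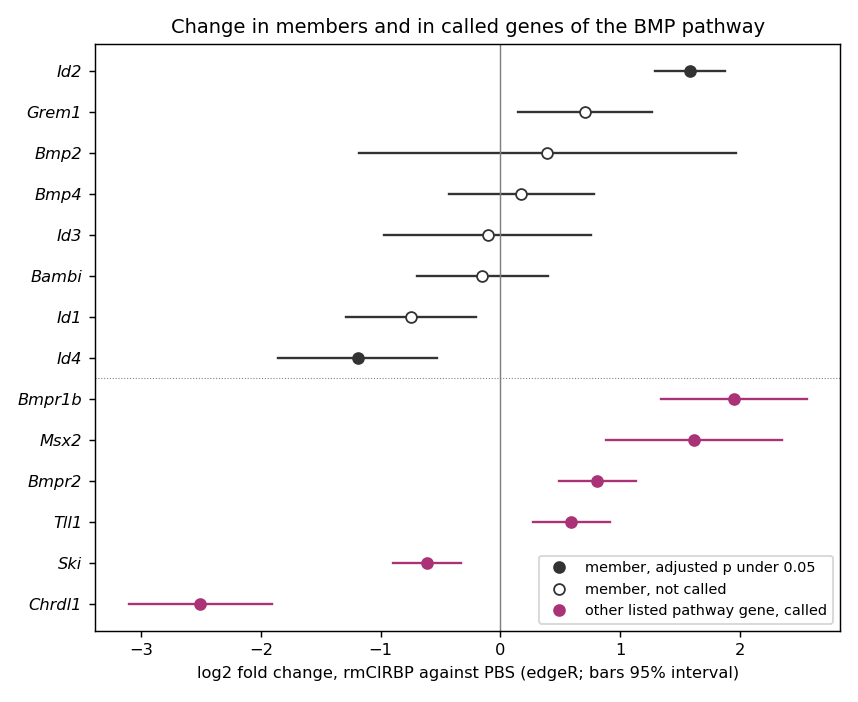
Log2 fold change of rmCIRBP against PBS (horizontal axis) with 95% intervals for the 8 tested genes of the set and, under the dotted line, for the 6 called genes of the listed BMP pathway; filled points passed an adjusted p of 0.05. Id2 at 1.58 and Id4 at -1.19 are the filled points above the line, and the interval of Bmp2, from -1.18 to 1.97, is the widest in the upper part.

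The ID genes did not move together. Id2 (chromosome 12, 25093799 to 25097140) was at 19.1, 23.6 and 19.4 CPM in PBS and at 67.8, 59.7 and 58.6 CPM in rmCIRBP. The lowest treated library was 2.49 times the highest PBS library. Id2 rose by 1.58 on the log2 scale (SE 0.13; edgeR adjusted p = 0.000363), with every treated library above every PBS library. In the 16 alternatives run, listed in the closing section, it stayed between 1.52 and 1.70 with an adjusted p of at most 0.00427. Without PBS 1 and rmCIRBP 2, the libraries with the highest Myh11, Cnn1 and Actg2, its log2 fold change was 1.56.

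Id4 (chromosome 13, 48261228 to 48266026) was at 44.1, 27.7 and 19.5 CPM in PBS and at 12.9, 15.5 and 11.5 CPM in rmCIRBP. PBS 1 was the highest by far, and the groups did not overlap. Within each group Id4 ranked as the summed list led by Myh11, Cnn1 and Actg2 did. PBS 1 and rmCIRBP 2 were highest, and PBS 3 and rmCIRBP 3 lowest, in both. The part of those smooth muscle genes in the level of Id4 was not tested. Id4 fell by 1.19 on the log2 scale (SE 0.29; edgeR adjusted p = 0.0359). The call ended without PBS 2 (edgeR adjusted p = 0.0961), rmCIRBP 1 (0.113) or rmCIRBP 3 (0.0845), and with limma voom (0.0590), and the direction was the same in all 16 alternatives, from -1.43 to -0.82. Without both PBS 1 and rmCIRBP 2, chosen after the data were seen, the log2 fold change of Id4 was -0.94 (edgeR adjusted p = 0.0198). A long noncoding gene on the opposite strand, Gm49291, shares 171 exon bases with Id4. Gm49291 held 31, 22 and 21 counts in PBS and 5, 5 and 6 counts in rmCIRBP, and fell by 2.28 on the log2 scale (edgeR adjusted p = 0.0119). Its counts were 2.34% to 7.37% of those of Id4, and how much of either comes from the shared bases was not tested.

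Id1 (chromosome 2, 152736251 to 152737410) was at 16.6, 20.6 and 23.8 CPM in PBS and at 14.0, 8.31 and 14.0 CPM in rmCIRBP. Every treated library was below every PBS library, which was so for 17.1% of all genes tested. Its log2 fold change of -0.75 ± 0.24 (SE) did not pass (edgeR adjusted p = 0.0797; 95% interval -1.29 to -0.21). Id1 passed with DESeq2 (adjusted p = 0.0377) and, in edgeR, with no filter on low counts (0.0330) and without both PBS 1 and rmCIRBP 2 (log2 fold change -0.66, adjusted p = 0.0257). In the other 13 of the 16 alternatives it did not pass. The edgeR adjusted p of Id1 was 0.201 without PBS 2, 0.243 without PBS 3, 0.128 without rmCIRBP 1 and 0.119 without rmCIRBP 2.

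Id3 (chromosome 4, 136143497 to 136145755) was the most abundant ID gene per kilobase in 5 of 6 libraries. It was at 79.9, 92.3 and 91.4 CPM in PBS and at 85.4, 35.1 and 124 CPM in rmCIRBP. The PBS libraries were close together, whereas rmCIRBP 2 lay below and rmCIRBP 3 above all of them. In these the summed list led by Myh11, Cnn1 and Actg2 was at its highest (1716 CPM) and lowest (180 CPM), and the part of these genes in the level of Id3 was not tested. The log2 fold change was -0.11 with a 95% interval of -0.97 to 0.76 (edgeR adjusted p = 0.879). Without rmCIRBP 2 it was 0.26 (edgeR adjusted p = 0.386).

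**Figure D3:**
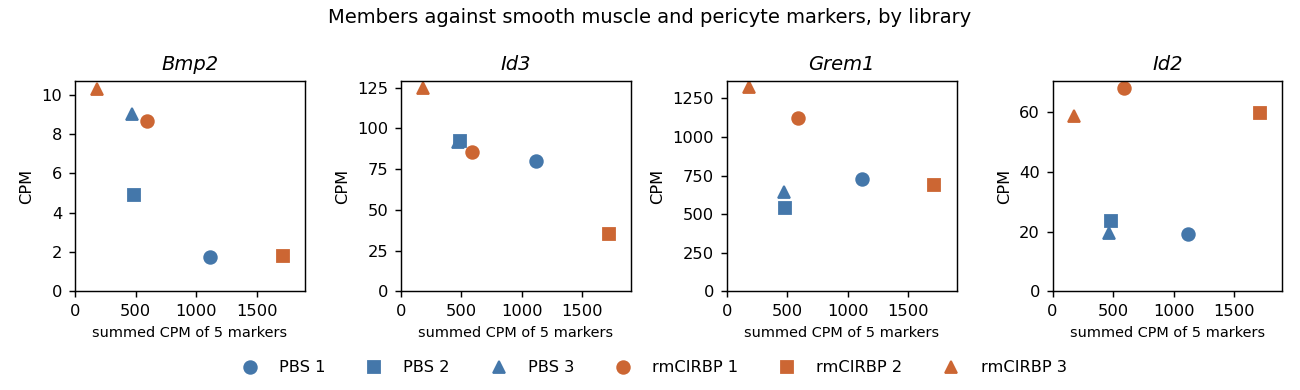
CPM of Bmp2, Id3, Grem1 and Id2 (vertical axes) against the summed CPM of 5 smooth muscle and pericyte markers, carried by Myh11, Cnn1 and Actg2 (horizontal axes, linear), in the 6 libraries, with PBS in blue and rmCIRBP in orange. PBS 1 at 1118 and rmCIRBP 2 at 1716 CPM lie at the right with low Bmp2, while the Id2 values separate by treatment at both ends of the axis.

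In the makeup of the ID transcripts, the shares of Id1 and of Id2 did not overlap between the groups, whereas those of Id3 and Id4 did. Per kilobase the 4 ID genes summed to 78.2, 86.2 and 84.6 CPM in PBS and to 90.8, 55.3 and 109 CPM in rmCIRBP, with the treated libraries on both sides of the PBS range. Id2 made up 9.99%, 11.2% and 9.42% of that sum in PBS and 30.6%, 44.3% and 22.2% in rmCIRBP. Id1 made up 18.3% to 24.3% in PBS and 11.1% to 13.3% in rmCIRBP. Id4 made up 14.6%, 8.34% and 5.99% in PBS and 3.68%, 7.27% and 2.75% in rmCIRBP, with rmCIRBP 2 above PBS 3. Id3 made up 57.1% to 60.3% in PBS and 35.5% to 64.0% in rmCIRBP. The ratio of Id2 to Id4 per kilobase was 0.682, 1.35 and 1.57 in PBS and 8.32, 6.09 and 8.05 in rmCIRBP. These shares restate the levels above and were not tested.

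**Figure D4:**
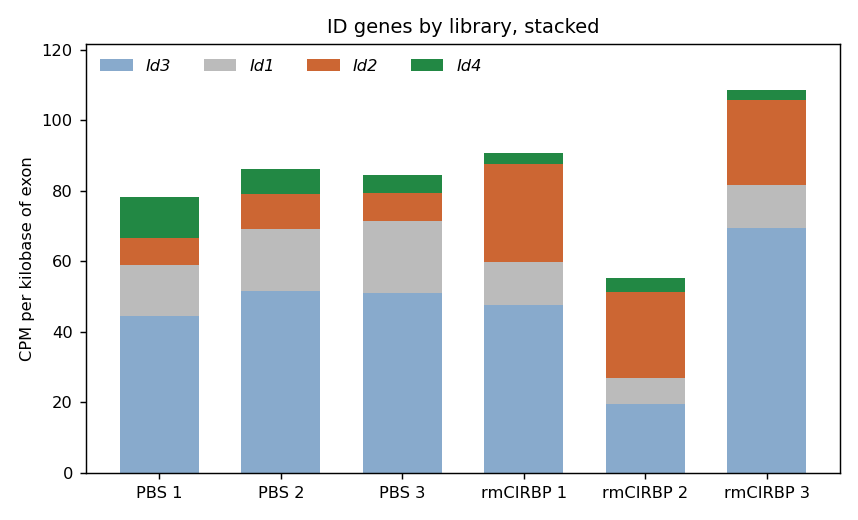
Stacked levels of Id3, Id1, Id2 and Id4 in CPM per kilobase of exon (vertical axis from 0) in each library. The Id2 segment takes 9.42% to 11.2% of the bar in PBS and 22.2% to 44.3% in rmCIRBP, and the rmCIRBP 2 bar is the lowest at 55.3 with the smallest Id3 segment.

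Upstream sequence is shown for Id2 and Id4, which were called in opposite directions, and for Grem1, the most abundant gene of the set. It was read from RefSeq promoters of GRCm38.p6, which held 5 of the 9 genes. Capitals mark GGCGCC, a GC-rich element known from BMP-responsive regions of ID genes, and each run is 5′ to 3′ on the strand of its gene. The Id4 run is the 250 bases before the start site (chr13:48260866-48261115, plus strand) and lies within the span of the noncoding gene Gm49291. The Grem1 run is the 250 bases before the start (chr2:113758649-113758898, minus strand). The Id2 run (chr12:25096254-25096342, minus strand) is the outer 89 of 250 bases, which lie in an intron of a longer Id2 transcript in GENCODE, the other 161 being in an exon of that transcript.
Id2: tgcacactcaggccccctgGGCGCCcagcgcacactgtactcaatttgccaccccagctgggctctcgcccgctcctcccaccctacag
Id4: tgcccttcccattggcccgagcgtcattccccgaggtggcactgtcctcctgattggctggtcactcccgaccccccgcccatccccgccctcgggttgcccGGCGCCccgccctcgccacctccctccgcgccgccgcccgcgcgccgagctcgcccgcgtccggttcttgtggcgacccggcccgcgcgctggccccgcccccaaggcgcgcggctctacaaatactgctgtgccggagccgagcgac
Grem1: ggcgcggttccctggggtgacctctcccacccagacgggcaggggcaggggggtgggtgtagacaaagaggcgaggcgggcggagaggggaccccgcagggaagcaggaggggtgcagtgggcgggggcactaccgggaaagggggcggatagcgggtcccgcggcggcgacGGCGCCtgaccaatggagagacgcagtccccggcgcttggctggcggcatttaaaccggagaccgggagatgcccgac

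Each of these 3 genes had 1 GGCGCC in its 250 bases, and Id3 and Bmp4 had 0, on either strand. Of 32851 RefSeq promoter windows of that length, 9.59% held it. GGCGCC is made of G and C alone, and the printed runs were GC-rich, at 67.4% for Id2, 75.6% for Id4 and 72.0% for Grem1. The part of base content in these matches was not tested. Whether the element has a part in the changes of Id2 and Id4 was not tested. GTCTG, a core that SMAD proteins bind, was found once in the window of Grem1 and at 2 places in that of Id3, and not in those of Id2, Id4 or Bmp4, against 42.2% of all windows. The NF-kB consensus was found in 0 of the 5 windows and in 7.25% of all windows. A match is a run of letters and not a site shown to be bound, and no match covers only these windows.

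The other genes of the pathway were taken from lists of ligands, antagonists, receptors, SMADs, targets and ID partners, 66 genes in all, of which 53 were tested. Of these 4 were higher and 2 lower, 11.3% in all beside 11.5% of all genes tested, and the median log2 fold change was -0.055 beside -0.01. The changed genes lay among the antagonists and modulators, the receptors, the SMAD regulators and the targets.

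Of 14 other secreted antagonists and modulators, 11 were tested, 1 rose and 1 fell. Chrdl1, chordin-like 1, a secreted BMP antagonist, was at 7.07, 8.87 and 7.04 CPM in PBS and at 1.03, 1.52 and 1.47 CPM in rmCIRBP. Chrdl1 fell by 2.51 on the log2 scale (SE 0.26; edgeR adjusted p = 0.00115), and the groups were far apart. Tll1, a protease that cleaves the antagonist chordin, rose by 0.59 (edgeR adjusted p = 0.0333), from 50.0 to 63.0 CPM in PBS to 71.1 to 94.7 CPM. The call of Tll1 ended in edgeR without PBS 1 (adjusted p = 0.0590), PBS 2 (0.119), PBS 3 (0.0557), rmCIRBP 1 (0.112) or rmCIRBP 3 (0.0801), whereas that of Chrdl1 passed in all 16 alternatives.

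Of 13 receptors and co-receptors, 12 were tested, 2 rose and 0 fell. Bmpr1b, a type I BMP receptor, was at 20.5, 10.5 and 11.4 CPM in PBS and at 59.9, 59.3 and 44.2 CPM in rmCIRBP. Bmpr1b rose by 1.95 on the log2 scale (SE 0.26; edgeR adjusted p = 0.00382) and passed in all 16 alternatives. Bmpr2, a type II receptor for BMPs, was at 184, 171 and 192 CPM in PBS and at 316, 273 and 371 CPM in rmCIRBP. Bmpr2 rose by 0.81 on the log2 scale (SE 0.14; edgeR adjusted p = 0.00982), and without PBS 2 that call was lost (0.0534). The groups did not overlap for either receptor gene.

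Of 12 other ligands, 7 were tested and 0 were called by edgeR (1 at an unadjusted p under 0.05) and by DESeq2. Limma voom, and edgeR with no filter on low counts, called 1. Over all genes tested, limma voom called 1738 of 15801 and the fit with no filter 2607 of 28056. Gdf10, also known as BMP3B, had the smallest p among them, with 20.0, 5.21 and 2.26 CPM in PBS and 46.8, 39.3 and 41.8 CPM in rmCIRBP. Every treated library was above every PBS library, and PBS 1 was well above the other PBS libraries. For Gdf10 the difference was 2.23 on the log2 scale (SE 0.63), short of the threshold (edgeR adjusted p = 0.0578). It passed with no filter on low counts (2.26, edgeR adjusted p = 0.000843), with limma voom (2.85, adjusted p = 0.0164) and without PBS 1 (3.54, edgeR adjusted p = 0.00196), while the adjusted p of DESeq2 on all libraries was 0.0658.

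Of 11 SMADs and SMAD regulators, all tested, 1 fell and 0 rose. Ski, a corepressor that binds SMADs, was at 319, 373 and 309 CPM in PBS and at 208, 213 and 236 CPM in rmCIRBP. Ski fell by 0.61 on the log2 scale (SE 0.12; edgeR adjusted p = 0.0186), and this was lost without PBS 2 (0.0791) or rmCIRBP 1 (0.0893). Of 9 other known BMP targets, 8 were tested, 1 rose and 0 fell. Msx2, a homeobox factor, was at 2.16, 2.36 and 3.01 CPM in PBS and at 7.79, 4.99 and 10.5 CPM in rmCIRBP. Msx2 rose by 1.62 on the log2 scale (SE 0.32; edgeR adjusted p = 0.0172), and this was lost without PBS 2 (0.0769) or rmCIRBP 1 (0.0626).

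Of 11 basic helix-loop-helix partners and relatives of ID proteins, 8 were tested and 0 were called by edgeR (4 at an unadjusted p under 0.05). DESeq2 and limma voom called 0 of them as well, whereas edgeR with no filter on low counts called 1, Hes1 (log2 fold change -0.88, adjusted p = 0.0409), and edgeR without both PBS 1 and rmCIRBP 2 called 2, Hes1 (adjusted p = 0.0443) and Tcf3. The median log2 fold change of the 8 was -0.34, beside -0.01 over all genes tested, and 0 of the 8 had a positive value. Tcf3, the E protein E2A, had the smallest p, with 90.1, 105 and 108 CPM in PBS and 85.1, 70.1 and 80.6 CPM in rmCIRBP. Its difference of -0.36 on the log2 scale (SE 0.12) did not pass (edgeR adjusted p = 0.0880), but it passed without both PBS 1 and rmCIRBP 2 (0.0492).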

How the data were processed

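RNA-seq was made from 3 PBS and 3 rmCIRBP libraries. The authors deposited raw counts per gene, and columns were matched to samples by group and number in the titles, with 0 columns of sample values left unmapped. Per the submitters' processing notes, featureCounts, DESeq2 and R 4.1.2 were used with GRCm38 (mm10). Which aligner, annotation release and strand setting were used is not given in the sources used here.

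The tests used edgeR 4.0.16 under R 4.3.3, with filterByExpr by group, trimmed mean of M values, a quasi-likelihood F test on treatment (two-sided) and Benjamini-Hochberg adjustment over 15801 genes at 0.05. Exon lengths were taken from GENCODE M21, in which 55141 of the 55487 gene IDs were found. On simulated counts for rmCIRBP against PBS (15580 genes, 197 changed), edgeR found 64.3% of the 2-fold changes and 94.9% of the 4-fold changes. Of its calls on the simulated counts, 3.68% were false. These rates describe the simulated counts alone, with far fewer changed genes than the 1818 of 15801 called in the data. Whether the rates hold for the measured libraries was not tested.

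The genes and lists were chosen with earlier results of these data known, and 1 listed gene is not reported here and enters no list count. All 9 genes are named. From each list the text names the called genes, or the gene with the smallest p where none was called. Hes1 is named beyond this rule, because alternative fits called it. Alternatives were DESeq2 1.42.0, limma 3.58.1 voom, scaling by upper quartile, library size or DESeq2 size factors, no filter or at least 1 CPM in 3 libraries, the replicate number as a block, protein-coding genes alone, each library left out in turn, and, added after the data were seen, leaving out PBS 1 and rmCIRBP 2.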

Additional observations from a re-analysis of the deposited data

How the results depend on the processing

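Over the 16 alternatives, the direction of Grem1, Id1, Id2, Id4 and Bambi was the same, and the call of Id2 held in all 16. With no filter on low counts, with DESeq2 and without both PBS 1 and rmCIRBP 2, 2 of the 9 genes were called higher and 2 lower, against 1 and 1. Over all genes tested, these fits called 2607 of 28056, 2535 of 18264 and 2802 of 16027, against 1818 of 15801. In these fits Grem1 was at 0.73, 0.71 and 1.05 and Id1 at -0.73, -0.75 and -0.66 on the log2 scale, each past the threshold. With limma voom 0 were called lower and Id4 was at -1.10. Without both PBS 1 and rmCIRBP 2, Id3 was at 0.20 and 2802 genes were called. Listed pathway genes called were 8 higher and 4 lower with no filter, 7 higher with DESeq2, and 9 higher and 6 lower without both PBS 1 and rmCIRBP 2, against 4 and 2.

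Leaving out 1 library at a time gave 723 to 2144 genes called, 1 to 2 of the 9 genes called higher and 0 to 1 lower, and 1 to 6 listed pathway genes called higher and 1 to 3 lower, the fewest (1 and 1) without PBS 2. Over the same fits the log2 fold change ranged from -0.0089 to 1.06 for Bmp2, from -0.076 to 0.39 for Bmp4, from 0.50 to 0.94 for Grem1, from -0.54 to 0.26 for Id3 and from -1.43 to -0.82 for Id4. Bmp2 was at -0.0089 without PBS 1 and at -0.0044 without rmCIRBP 3, Bmp4 at -0.076 without PBS 3 and Id3 at 0.26 without rmCIRBP 2. The cause of these changes was not tested, beyond the fewer samples fitted.

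The replicate numbers did not pair the libraries: deviations from the group means correlated at -0.107, -0.169 and 0.246 between libraries of the same number, and PBS 1 correlated best with rmCIRBP 2 (0.360). With the replicate number as a block, 1258 genes were called, Id2 and Id4 stayed past the threshold, and 6 listed pathway genes were called higher and 1 lower, Ski not passing (edgeR adjusted p = 0.0541). By CPM without length, Id1 ranked 6 and Id4 5 in rmCIRBP, against 5 and 6 per kilobase. Nog has a value only with no filter or with DESeq2. Depth limits Nog, with 29 counts in all, and Bmp2 in PBS 1 and rmCIRBP 2, with 21 and 25 counts.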
